A study of Mus musculus with 2 samples.

Results

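Interferon-stimulated genes (ISGs) are described here across the cell types of the infarcted mouse brain. The members are 38 genes named by symbol, all of which were found among the 31253 genes of the count tables. For each gene, unique molecular identifiers (UMIs, 1 per captured RNA molecule) were added up over the cells of a class in a library and scaled to CPM, the counts per 1000000 UMIs of that class.

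Cells came from infarcted brain tissue 3 days after transient middle cerebral artery occlusion (tMCAO), which closes the main artery of a hemisphere and then reopens it. The flox library is from control mice (WT in the design text), and the Hilpda cKO library comes from mice with a conditional knockout of Hilpda, a lipid droplet protein gene. Both groups had the stroke, and no library from uninjured brain was used here. The labels give neither the Cre driver, the deleted exons, the age and sex, nor the number of animals behind a library. Each group is a single library, so no test was made and a difference is one between 2 libraries. Effects of preparing the libraries and of the genotype cannot be told apart.

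Type I interferons bind a receptor of Ifnar1 and Ifnar2, whose kinases activate Stat2. Stat2 acts with Irf9 at a short repeated motif, the interferon-stimulated response element, before the start of ISGs. The products degrade or bind viral RNA, sense nucleic acids or amplify the response, and after brain injury microglia and invading myeloid cells are known to express them without a virus.

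Promoters are shown first because these genes were grouped by a shared way of induction. Promoter sequences (RefSeq, GRCm38.p6) were found for 31 of the 38 members. The core GAAANNGAAA, where N is any base, was searched on both strands in the 250 bases before each start, and matches may overlap. It was present for 13 of the 31 members (41.94%) and for 936 of 27025 genes with a promoter entry (3.463%). A match describes these letters and is not a shown binding site. The 7 windows below were picked by hand from the 13 members with a match. Members named often in the text, such as Irf7, Ifit2 and Ifitm3, had a promoter entry without a match. They hold 60 bases each, read 5′ to 3′ on the gene's strand, with the core or its reverse complement in capitals. The windows lie at chr4:156200862-156200921 (minus strand, Isg15), chr19:34640760-34640819 (plus, Ifit1), chr19:34583348-34583407 (plus, Ifit3), chr12:26456538-26456597 (minus, Rsad2), chr8:71537568-71537627 (minus, Bst2), chr3:142620579-142620638 (plus, Gbp2) and chr5:120907526-120907585 (minus, Oas1a).
Isg15: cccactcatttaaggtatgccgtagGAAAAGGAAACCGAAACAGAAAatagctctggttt
Ifit1: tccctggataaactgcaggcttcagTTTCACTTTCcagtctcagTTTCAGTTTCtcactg
Ifit3: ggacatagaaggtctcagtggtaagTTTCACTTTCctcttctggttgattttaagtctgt
Rsad2: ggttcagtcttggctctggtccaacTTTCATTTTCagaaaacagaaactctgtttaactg
Bst2: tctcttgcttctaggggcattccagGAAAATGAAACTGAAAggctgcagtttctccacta
Gbp2: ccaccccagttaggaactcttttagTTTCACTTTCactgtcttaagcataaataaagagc
Oas1a: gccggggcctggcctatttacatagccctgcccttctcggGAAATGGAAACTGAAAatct
Isg15 had 3 overlapping matches in its promoter, and Ifit1, Ifit3, Bst2 and Oas1a had 2 each, the second of Ifit3 reaching past its window. The other members with a match were Oas3, Stat2, Ifi203, Slfn5, Slfn8 and Trim30a. Oas2, Usp18, Zbp1, Ifi204, Ifi27l2a, Rtp4 and Parp14 had no entry in the promoter table.

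The libraries held 67864602 UMIs in 8593 barcodes (flox) and 70665440 in 7382 (cKO), and 8065 and 6984 cells were kept, with median depths of 6997 and 8741 UMIs. They shared 56 barcodes. Cells were placed in classes by scores of marker genes, none of them a member, and classes are called "-like" because the gate is a range on a score. Monocyte or macrophage-like cells are called macrophage-like below. The gate left 18.3% of flox and 16.9% of cKO cells without a class, and 1771 of these lay in clusters named monocyte or macrophage. Of the gated macrophage-like cells, 498 of 2330 in flox and 402 of 2276 in cKO lay within 0.05 of the margin to another class, against 166 of 2408 and 72 of 1527 microglia-like cells. In macrophage-like cells the median score was 0.386 for their own markers, 0.144 for microglial and 0.117 for border-associated macrophage markers. The 7 classes compared had 100 cells or more in both libraries. These were microglia-like, macrophage-like, border-associated macrophage-like (232 and 234 cells), dendritic cell-like (111 and 105), neutrophil-like (171 and 260), endothelial cell-like (554 and 510) and oligodendrocyte-like cells (293 and 276). Hilpda itself had 488 CPM in macrophage-like cells of flox and 265 in those of cKO. Its microglia-like levels were 113 and 216 CPM. The deleted part is not given, so its 3′ counts do not check the labels. Every interval below is a 95% interval and covers counting error only.

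ISG RNA was spread over immune and vascular cells and was low in oligodendrocyte-like cells. In flox the 38 members summed to 5587 CPM in neutrophil-like cells (5262 to 5928), 4111 in endothelial cell-like cells (4036 to 4187), 3825 in border-associated macrophage-like cells (3744 to 3907) and 3771 in dendritic cell-like cells (3610 to 3936). Macrophage-like cells had 2997 CPM (2973 to 3022), microglia-like cells 1715 (1699 to 1732) and oligodendrocyte-like cells 217 (197 to 238). The intervals of the border-associated macrophage-like and dendritic cell-like classes overlapped, while microglia-like cells lay below all other compared classes but oligodendrocyte-like ones. In cKO the sums were 4398 CPM in dendritic cell-like, 3967 in neutrophil-like, 3642 in endothelial cell-like, 3154 in border-associated macrophage-like, 2190 in macrophage-like, 1354 in microglia-like and 200 in oligodendrocyte-like cells. A few members carried much of these sums. Ifitm3, an antiviral protein of endosomal membranes that many cells make without interferon, was 48.7% of the sum in flox and 60.7% in cKO endothelial cell-like cells. Without Ifitm3, Bst2 and Ifi27l2a the flox sums were 4885 CPM in neutrophil-like, 1956 in dendritic cell-like and 1943 in endothelial cell-like cells. Macrophage-like cells then had 1868, border-associated macrophage-like 1709, microglia-like 1187 and oligodendrocyte-like cells 154. In cKO, in this order, the sums were 3523, 2138.5, 1301, 1286, 1447, 914 and 140. The order of the classes between neutrophil-like and microglia-like cells thus depended in part on these 3 members. The neutrophil-like sum in turn leaned on Slfn4, which was 21.9% of it in flox and 28.4% in cKO. Without Slfn4 it was 4361 CPM in flox and 2840 in cKO. Slfn1 had another 896 and 844 CPM there. Sums without both genes were not taken, so the high place of neutrophil-like cells was not shown to hold without them.

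**Figure D1:**
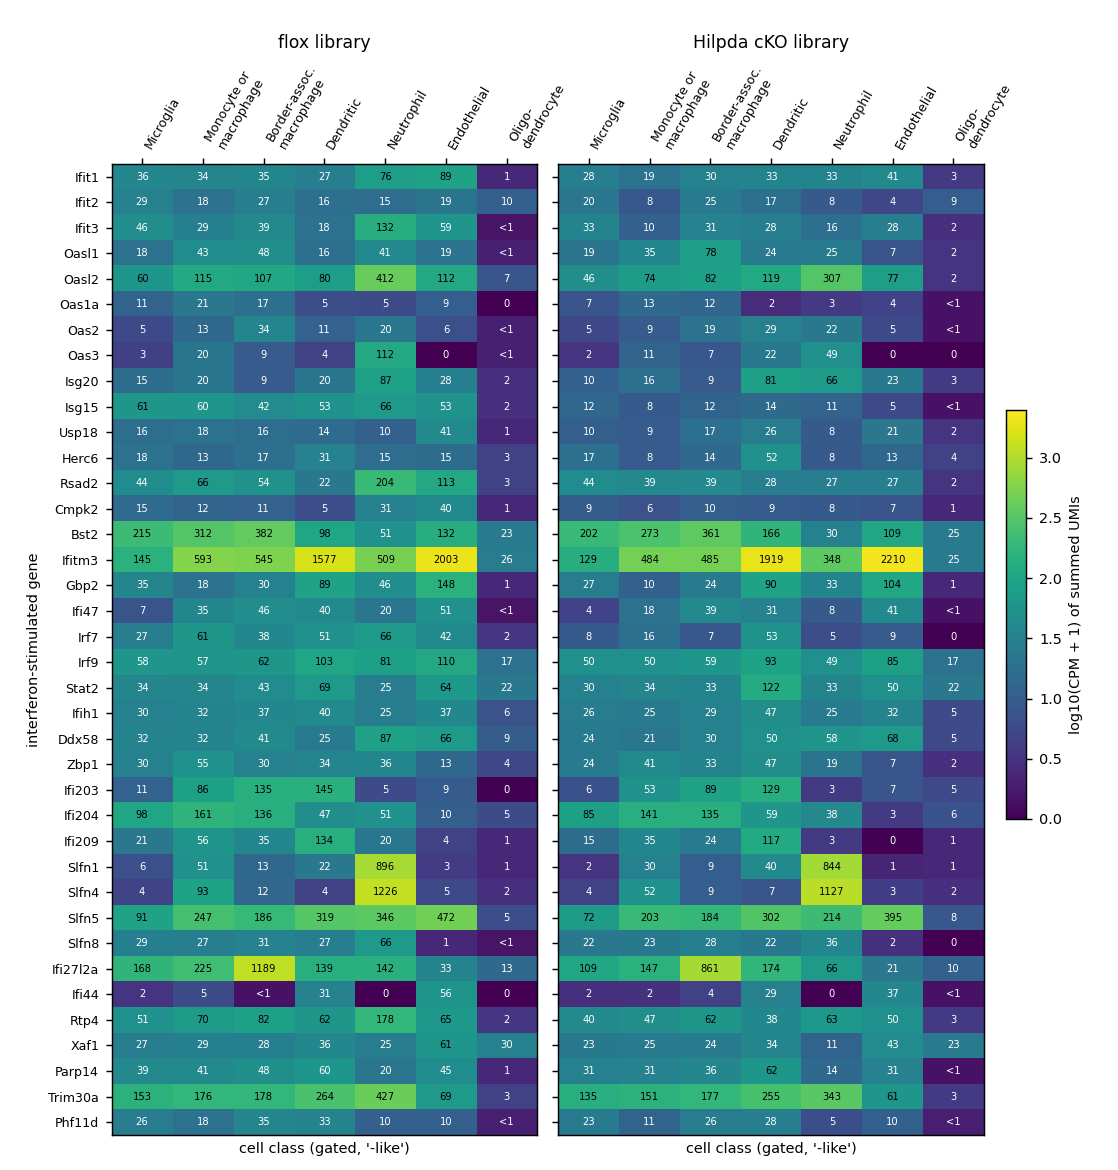
Level of each member (rows) in each compared class (columns) in the flox library (left) and the Hilpda cKO library (right). The colour is log10(CPM + 1) of the summed UMIs and the printed number is CPM. Slfn1 and Slfn4 stand out in neutrophil-like, Ifi27l2a in border-associated macrophage-like and Ifitm3 in endothelial and dendritic cell-like cells.

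Some single members had a clear leading class among the 7 compared. For 25 of 38 the class with the highest CPM was the same in both libraries, and for 8 it was also apart from the next class by its interval in both. The same shares over all genes were not counted. Slfn4 and Slfn1, Schlafen genes of T cell and myeloid development, led in neutrophil-like cells. Slfn4 had 1226 CPM in flox and 1127 in cKO, from 241 and 411 UMIs, and macrophage-like cells, the next class, had 93.5 and 52.2 CPM. Slfn1 had 896 and 844 CPM in neutrophil-like cells, against 51.5 and 30.2 in macrophage-like cells. Oasl2, a ubiquitin-like relative of the 2′-5′ oligoadenylate synthetases, led there too, at 412 and 307 CPM. These neutrophil-like values rest on shallow cells, with medians of 1063 and 1299.5 UMIs.

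Border-associated macrophage-like cells led for 2 members. Ifi27l2a, a small mitochondrial protein gene used as a sensitive interferon marker, stood at 1189 CPM in flox and 861 in cKO, and the next class in flox, macrophage-like cells, had 225 CPM. Bst2, which tethers budding virus to the membrane, had 382 and 361 CPM there and 312 and 273 in macrophage-like cells. Endothelial cell-like cells led for Ifitm3 (2003 and 2210 CPM, with 1577 and 1919 in dendritic cell-like cells) and for Slfn5 (472 and 395 CPM). Dendritic cell-like cells led for Ifi209, a member of the DNA-binding PYHIN family, at 134 and 117 CPM. Some members were close to absent in a class. Oas3 had 0 UMIs in endothelial cell-like cells of both libraries and Ifi44 had 0 in neutrophil-like cells of both.

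Macrophage-like and microglia-like cells differed in which ISGs they carried. At least 2-fold higher in macrophage-like cells in both libraries were 8 of 38 members, against 6.29% of 10845 genes, and 0 members were at least 2-fold lower in both, against 12.8%. The 8 were Slfn4, Slfn1, Ifi203, Oas3, Ifi47, Ifitm3, Slfn5 and Ifi209. In flox, Slfn4 had 93.5 CPM in macrophage-like cells against 4.06 in microglia-like cells, and in cKO 52.2 against 3.65. The log2 difference of macrophage-like over microglia-like cells was 4.53 (4.23 to 4.84) in flox and 3.84 (3.50 to 4.19) in cKO. Ifi203, another PYHIN gene, had log2 differences of 2.98 and 3.11, and Ifitm3 of 2.03 and 1.91. The other 30 members did not pass 2-fold in the same direction in both libraries. Among them was Ifit2, an RNA-binding inhibitor of translation, with 18.3 CPM in macrophage-like cells of flox against 29.4 in microglia-like cells, and 7.61 against 20.4 in cKO. Ifi203 shares exon sequence on the same strand with Mndal, and the PYHIN, Schlafen and Oas1 genes have close copies, so reads may be split among them.

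ISG RNA was unevenly spread among the cells of a class. Cells were thinned to 1000 UMIs so that depth was equal, and a cell was counted when at least 3 of these 1000 UMIs were from members. This share was 22.8% in flox and 17.97% in cKO microglia-like cells (21.1 to 24.6 and 16.04 to 20.03), and 43.0% and 35.9% in macrophage-like cells (41.0 to 45.1 and 33.9 to 37.9). Without thinning, 83.3% and 88.6% of microglia-like and 96.9% and 97.5% of macrophage-like cells had 3 member UMIs, where the median depths were 8643 and 13149 UMIs for the former, 7456.5 and 9340 for the latter. Thinned, the flox library was thus the higher one in both classes, while unthinned shares followed the deeper library. Endothelial cell-like cells had 65.5% and 63.1%, dendritic cell-like cells 60% and 61.5%, and border-associated macrophage-like cells 55.5% and 48.4%, each pair with overlapping intervals. Neutrophil-like cells had 59.4% and 44.6%, also with overlapping intervals, after 70 of 171 and 56 of 260 cells were left out as shallower than 1000 UMIs. Oligodendrocyte-like cells served as background. Their share was 0.82% in flox (2 of 244 cells) and 0 of 234 cells in cKO, with an exact upper limit of 1.56%. Their median depths were 5060 and 6494 UMIs, and the unthinned shares 20.1% and 21.0%.

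**Figure D2:**
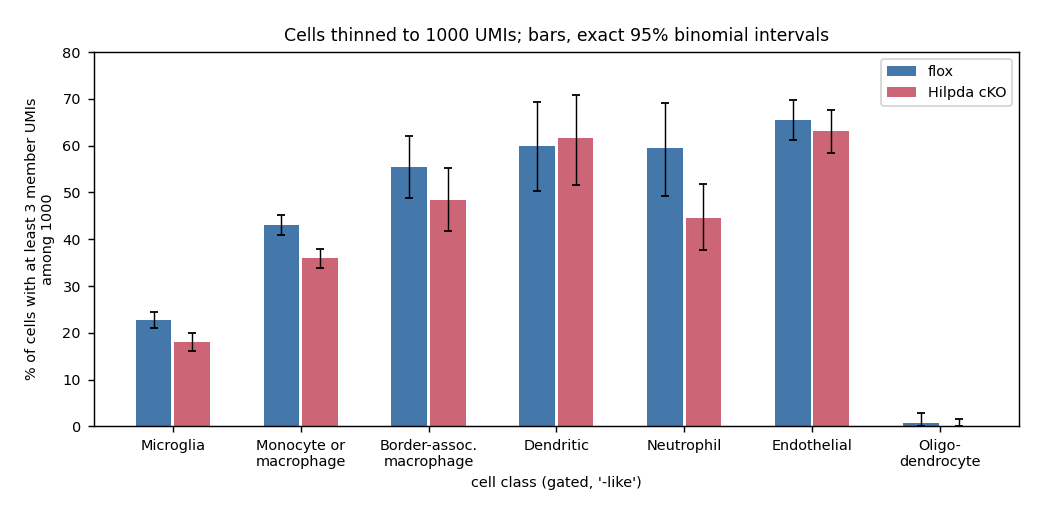
Share of cells with at least 3 member UMIs among 1000 (y axis, percent) for each compared class, flox in blue and Hilpda cKO in red. Bars are exact 95% binomial intervals; microglia-like and macrophage-like cells have the pairs of intervals that do not overlap.

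Ifit1 and Ifit3 RNA sat in few cells. In flox microglia-like cells, 79.1% of the 856 Ifit1 UMIs were in the top 5% of cells (121 of 2408), and 79.2% of the Ifit3 UMIs. Ifit2 (76.5%) and Rsad2 (74.1%) were similar, and Cmpk2 was higher, with 92.8% of 345 UMIs. Oasl2 was less concentrated with 52.2%, and Bst2 was broader still, with 25.5% of its 5093 UMIs in the top 5%. This share rises when a gene has few UMIs, so members of unlike level cannot be ranked by it. Oas2 was at 100% because its 109 UMIs lay in only 92 cells. In macrophage-like cells of flox the shares were 75.6% for Ifit1, 81.1% for Ifit3, 86.4% for Ifit2, 37.3% for Oasl2 and 21.0% for Bst2. A single flox endothelial cell-like cell held 83 of the 315 Rsad2 UMIs of that class, so the Rsad2 level there leans on few cells. For Oasl1 the highest flox cell of that class held 30 of 53 UMIs, for Cmpk2 30 of 112 and for Ifit2 16 of 54.

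The next question was how ISG levels compared between the Hilpda cKO and flox libraries within each class. Most members were lower in cKO in macrophage-like, microglia-like and endothelial cell-like cells, mostly by less than 2-fold. In macrophage-like cells all 38 had a log2 ratio of cKO over flox below 0, with a median of −0.65, while the median of all 12368 genes with at least 10 UMIs was 0.00 and 49.4% of genes lay below 0. The ratio's interval lay below 0 for 37 of the 38, against 23.3% of genes with at least 30 UMIs in the higher library. A gene passed a size rule when the libraries differed 2-fold or more, the higher one had 30 UMIs, and the interval left out equal levels. By this rule 6 members were lower in cKO, against 5.44% of 10375 genes, and 0 were higher, against 0.704%. In microglia-like cells 36 of 38 ratios were below 0 with a median of −0.36, beside −0.04 for all genes, of which 55.9% lay below 0. The interval lay below 0 for 32 members, against 28.8% of genes. Here 3 members passed as lower, a share near the 5.87% of 11005 genes, and 0 as higher, against 0.445%. Over all cells together 2 members passed as lower, Isg15 and Irf7, against 5.26% of 14170 genes, and 0 as higher, against 2.66%.

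The other classes did not all follow. In endothelial cell-like cells the median was −0.52, beside −0.11 for all genes, and the interval lay below 0 for 21 of 29 members with enough UMIs, against 24.4% of genes. By the size rule 8 of 29 were lower, against 6.55% of genes, and 0 higher, against 0.957%. Cluster 8, with 327 flox and 440 cKO cells, and cluster 15, with 234 and 98, were the endothelial clusters, and the members' medians within them were −0.37 and −0.27. Medians of all genes within these clusters were not taken. Border-associated macrophage-like cells had a median of −0.30, beside −0.02. There 2 of 32 were lower, a share near the 5.09% of all genes, and 0 higher, against 1.04%, while 11 had an interval below 0, against 14.7%. Neutrophil-like cells had a median of −0.71 over 26 members, beside 0.03. Their 2 lower members of 8 were Rsad2 and Rtp4, against 2.64% of genes, with 0 higher against 3.54%, and 4 of the 8 had an interval below 0, against 10.5%. With cells of at least 1000 UMIs 0 members passed as lower. Oligodendrocyte-like cells had a median of −0.06, beside −0.02, with 0 of 5 lower, against 4.62%, and 0 higher, against 0.899%, and with 0 intervals below 0, against 14.0%. Gated dendritic cell-like cells had a median of 0.27 over 35 members, beside −0.03. This direction did not hold with clusters in place of the gate (−0.39) or without Ly6c2, Plac8 and Ifitm6 in the gate (−0.0041). Without cells of 3 or more member UMIs among 1000 the median was −0.25, over 14 members. That step removed 66 of 110 flox and 64 of 104 cKO cells by the outcome itself, so it cannot decide the direction. Of 17 members with enough UMIs 1 was higher, against 1.63% of genes, and 0 were lower, against 4.62%, with 0 intervals below 0, against 12.8%.

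**Figure D3:**
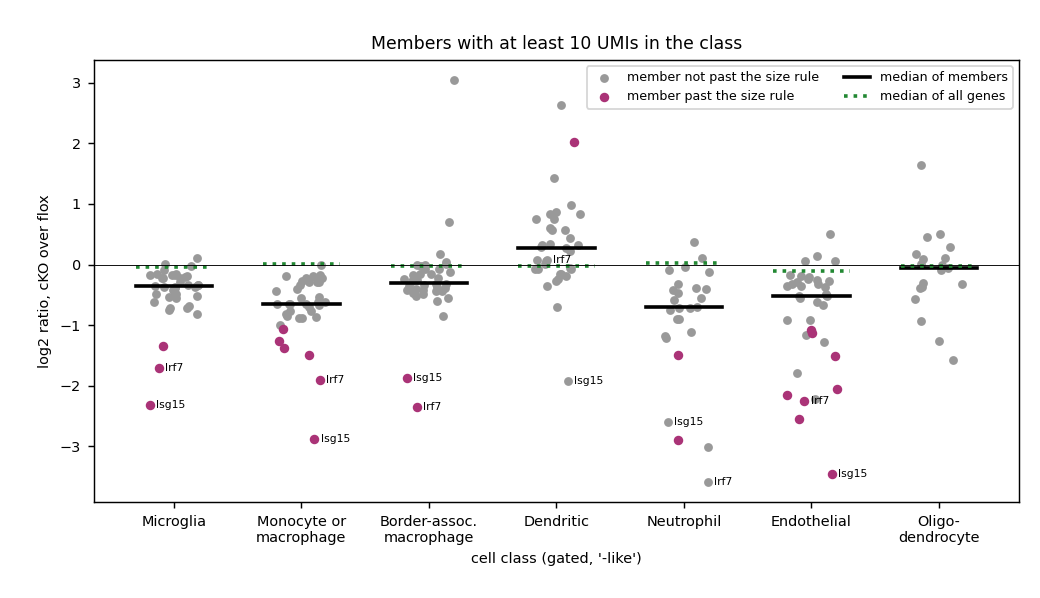
Log2 ratio of cKO over flox (y axis) for each member with at least 10 UMIs in a class (x axis). Purple points pass the size rule; black lines are the members' medians, from −0.71 in neutrophil-like to 0.27 in dendritic cell-like cells, and dotted green lines the medians of all genes.

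Isg15 and Irf7 had the lowest ratios of the 38 in microglia-like and macrophage-like cells, and were lower in cKO in other classes too. Isg15 encodes a ubiquitin-like protein that is joined to other proteins. It stood at 61.4 CPM in flox and 12.4 in cKO microglia-like cells (log2 ratio −2.31, −2.51 to −2.12), and at 59.9 and 8.10 CPM in macrophage-like cells (−2.89, −3.12 to −2.66). In endothelial cell-like cells it had 53.5 and 4.86 CPM (−3.46), in border-associated macrophage-like cells 42.2 and 11.5 CPM (−1.87). The cKO value was the lower one in these 4 classes, where it passed the size rule, and also in the other 3, which had under 30 UMIs in both libraries. In oligodendrocyte-like cells it was 4 UMIs against 1. Irf7, the factor that amplifies interferon production, had 27.2 and 8.32 CPM in microglia-like (−1.71) and 61.4 and 16.5 CPM in macrophage-like cells (−1.90). It also passed in endothelial cell-like (41.6 and 8.69 CPM, −2.26) and border-associated macrophage-like cells (37.7 and 7.42 CPM, −2.34). Dendritic cell-like cells were the exception, with 50.7 and 53.5 CPM of Irf7 (0.08, from 28 and 31 UMIs). Irf7 overlaps Phrf1 on the opposite strand, and the strand setting of the counting was not stated.

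Because these genes were lower in many classes, each ratio was also taken relative to the median ratio of the same gene over the other compared classes, a comparison chosen after the data were seen. Only classes with at least 10 UMIs of the gene entered this median, between 3 and 6 of them, and 5 for Isg15 and Irf7. On that scale Isg15 stood at −0.57 and Irf7 at 0.36 in macrophage-like cells, and at 0.28 and 0.55 in microglia-like cells, so neither passed the size rule. The members' median was then −0.20 for macrophage-like cells and 0.044 for microglia-like cells. In macrophage-like cells 3 members stayed past the rule, Ifit2 (−1.15), Ifit3 (−1.003) and Ifi44 (−1.19), against 0.463% of genes, and in microglia-like cells 0 did, against 0.476%. In endothelial cell-like cells 5 stayed past it, against 1.65% of genes, with Isg15 at −1.15, Rsad2 at −1.52, Cmpk2 at −1.86 (over 3 classes), Ifit2 at −2.04 and Oasl1 at −1.62. There a single flox cell held 30 of the 53 Oasl1 UMIs, so the Oasl1 value leans on 1 cell.

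Among the effectors that act on viral RNA, Ifit2 and Ifit3 passed the rule in macrophage-like cells. Ifit3, which stabilises the Ifit1 complex, had 28.6 CPM in flox and 10.2 in cKO (−1.49, −1.71 to −1.26), and Ifit2 18.3 and 7.61 CPM (−1.27). Ifit2 fell short of 2-fold without Ly6c2, Plac8 and Ifitm6 in the gate (−0.98). Ifit1, which binds the 5′ end of foreign RNA, had 34.2 and 18.6 CPM (−0.88). The same 3 genes stood at −0.39 to −0.53 in microglia-like cells, where none passed. In endothelial cell-like cells all 3 passed, Ifit1 with 89.4 and 40.9 CPM (−1.13), Ifit3 with 58.9 and 27.9 (−1.08) and Ifit2 with 19.4 and 4.34 (−2.16, from 54 and 17 UMIs). Ifit3 fell short of 2-fold there with TMM scaling (−0.96). The oligoadenylate synthetases, which activate the RNase that cuts viral RNA, ranged from −0.29 (Oasl1) to −0.88 (Oas3) in macrophage-like cells, their relatives Oasl1 and Oasl2 included. Oasl1 went against the others in border-associated macrophage-like cells, at 47.6 CPM in flox and 77.6 in cKO (0.71, 0.36 to 1.06), and stood at 0.10 in microglia-like cells. Isg20, an RNA exonuclease, was the member that passed as higher in dendritic cell-like cells, at 19.9 and 81.1 CPM (2.02, 1.06 to 3.12), from 11 and 47 UMIs. With clusters in place of the gate it had 64.0 and 62.1 CPM there (−0.04) and did not pass.

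In the ISG15 system, Usp18, the protease that removes Isg15 and blocks the interferon receptor, had 18.1 and 8.63 CPM in macrophage-like cells (−1.07, −1.33 to −0.81). It no longer passed without Ly6c2, Plac8 and Ifitm6 in the gate (−0.93) or with clusters in place of the gate (−0.86). In microglia-like cells it had 15.8 and 9.59 CPM (−0.72). Herc6, the ligase that joins Isg15 to its targets in mice, had 12.9 and 8.45 CPM in macrophage-like (−0.61) and 18.3 and 16.5 in microglia-like cells (−0.15). Both differences were smaller than that of Isg15 in these classes.

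Rsad2 (viperin) and Cmpk2 are neighbouring genes whose products make and feed an antiviral nucleotide. Rsad2 had 43.5 CPM in flox and 43.8 in cKO microglia-like cells (0.01), and 66.3 and 39.2 CPM in macrophage-like cells (−0.76). In endothelial cell-like cells it had 113 and 27.4 CPM (−2.05, −2.38 to −1.73), and Cmpk2 had 40.2 and 6.90 CPM (−2.54). In neutrophil-like cells Rsad2 had 204 and 27.4 CPM (−2.89, from 40 and 10 UMIs), and 9 of 171 flox cells held 87.5% of the UMIs. In cells of at least 1000 UMIs it had 13 and 9 UMIs (−1.74), under the 30 that the rule needs. The membrane proteins Bst2 and Ifitm3 differed little. Bst2 had 215 and 202 CPM in microglia-like (−0.09) and 312 and 273 in macrophage-like cells (−0.19), and Ifitm3 593 and 484 CPM in macrophage-like cells (−0.29). Ifitm3 was slightly higher in cKO in endothelial cell-like cells, at 0.14 (0.09 to 0.19). The GTPases Gbp2 and Ifi47, which attack membranes around intracellular pathogens, stood at −0.81 and −0.99 in macrophage-like cells and at −0.35 and −0.75 in microglia-like cells. Ifi47 shares exons on the same strand with Olfr56, so its counts may be split.

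The partners of Irf7 among the transcription factors differed little. Stat2 had 33.9 and 33.8 CPM in macrophage-like (−0.01) and 34.2 and 30.1 in microglia-like cells (−0.18). Irf9, which shares exons on the same strand with Rnf31, had 56.8 and 50.3 CPM (−0.17) and 57.7 and 49.7 CPM (−0.21). In dendritic cell-like cells Stat2 stood at 68.8 and 122 CPM (0.83, 0.24 to 1.44). The sensors Ifih1 (MDA5) and Ddx58 (RIG-I), which detect double-stranded and 5′ triphosphate RNA, had macrophage-like ratios of −0.33 and −0.65 and microglia-like ratios of −0.22 and −0.42. Zbp1, a sensor of Z-form nucleic acid, had 55.4 and 40.8 CPM in macrophage-like cells (−0.44). Ifi204, a PYHIN DNA sensor, had 161 and 141 CPM (−0.20), Ifi203 85.6 and 52.8 (−0.70) and Ifi209 56.0 and 35.2 (−0.67).

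Of the Schlafen genes, Slfn1 passed the rule in microglia-like cells, at 5.83 and 2.29 CPM (−1.35, from 138 and 47 UMIs), and no longer did with clusters in place of the gate (−0.80). Its level there was far below the 51.5 and 30.2 CPM of macrophage-like cells (−0.77). In neutrophil-like cells, where Slfn1 and Slfn4 led, the ratios were −0.08 and −0.12. Slfn5 had 247 and 203 CPM in macrophage-like cells (−0.28), and Slfn8 27.1 and 22.9 (−0.24). Among the remaining members, Ifi44 passed in macrophage-like cells at 5.26 and 2.03 CPM (−1.37), and Rtp4, a chaperone of membrane receptors, passed in neutrophil-like cells at 178 and 63.1 CPM (−1.498, from 35 and 23 UMIs, or 22 and 22 in cells of at least 1000 UMIs). Ifi27l2a had 225 and 147 CPM in macrophage-like (−0.61) and 168 and 109 in microglia-like cells (−0.62). Trim30a, a ubiquitin ligase, had 176 and 151 CPM (−0.21) and Xaf1, a pro-apoptotic gene, 28.6 and 24.6 (−0.22) in macrophage-like cells. Parp14 and Phf11d stood at −0.40 and −0.65 there.

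The 2 libraries differed in the make-up of the gated classes, so levels were also set side by side within clusters, which were built without the members. Clusters are given by number and by the class whose markers scored highest on average. Medians over all genes were not taken within clusters. The members' medians below therefore cannot be set beside a shift of all genes. Cluster 14, with a median of 820 UMIs per cell, was left unnamed and is not counted below. It held 108 flox and 92 cKO gated microglia-like cells. The members' median there was −0.68, with sums of 2572 CPM in flox and 1685 in cKO. In all 5 macrophage clusters the members summed lower in cKO, with medians of −0.44 (cluster 0), −0.60 (1), −0.42 (2), −0.26 (5) and −0.55 (6). Levels differed more between these clusters than between the libraries, from 1661 CPM in flox cells of cluster 0, led by Fabp4, to 6226 in cluster 5, led by the monocyte gene Plac8. The microglia clusters were less even, with medians of −0.45 (cluster 3), −0.26 (7) and −0.13 (11), and 0.22 in cluster 4. Cluster 4, led by Slc2a5 and Siglech, held 761 of 2408 gated microglia-like cells in flox and 289 of 1527 in cKO, and 12 of its 37 measured members were below 0. Cluster 3, where 556 of 597 flox and 492 of 545 cKO cells were gated microglia-like, was led by the mast cell protease genes Mcpt4, Tpsb2 and Cpa3. A single ungated cKO cell held 584 of its 585 Mcpt4 UMIs, and microglia-like cells of cKO had 4 Mcpt4, 0 Tpsb2 and 4 Cpa3 UMIs in all. Isg15 was lower in cKO in each of the 9 clusters named macrophage or microglia, from −1.90 in cluster 4 to −2.95 in cluster 2. Irf7 was lower in each as well, from −1.06 in cluster 11 to −2.21 in cluster 2.

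**Figure D4:**
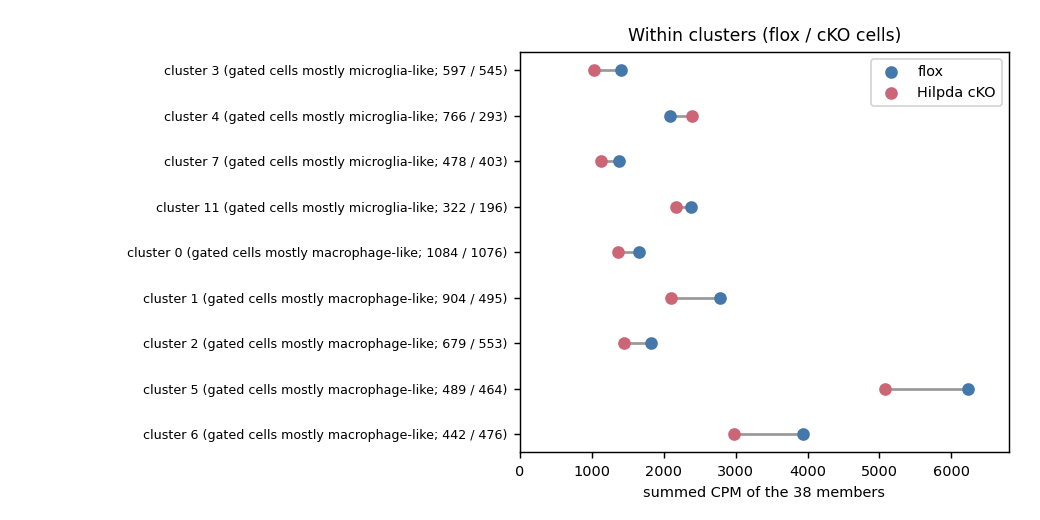
Summed CPM of the 38 members (x axis) in clusters whose gated cells were mostly microglia-like or macrophage-like, flox in blue and Hilpda cKO in red. Cell numbers are in brackets. The cKO point lies left of the flox point in all clusters shown but cluster 4.

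Medians were also taken without cells with much ISG RNA. Cutting both libraries at the same member level can move a ratio by construction. A change in the median therefore does not show the weight of such cells. When cells with 3 or more member UMIs among 1000 were left out of both libraries, a step that removes cells by the outcome itself, the median was −0.22 for macrophage-like cells and −0.14 for microglia-like cells. In dendritic cell-like cells it changed sign, to −0.25, over 14 members. Among cells of at least 1000 UMIs, the endothelial cell-like median was −0.53 both with and without such cells. The border-associated macrophage-like median was −0.30 with and −0.21 without them, and the neutrophil-like median −0.49 and −0.03 (over 25 and 6 members). The base composition of the counted 3′ ends was looked at as well. The members had a median of 45.0% GC over the last 500 bases, and 8 of 38 had at least 50%. Minus the median ratio of their GC bin, the members had a median of −0.65 (macrophage-like) and −0.34 (microglia-like). Isg15 (51.6% GC) stood at −2.29 in microglia-like cells and Irf7 (49.6%) at −1.72.

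The wider pathway was read from a list of 103 other genes, 100 of them in the tables. The receptors differed little. Ifnar1 had 29.6 CPM in flox and 33.2 in cKO microglia-like cells (0.17) and 46.9 and 55.7 in macrophage-like cells (0.25). Ifnar2 had 181 and 177 CPM (−0.03) and 183 and 184 CPM (0.00). The interferon gamma receptor chains Ifngr1 and Ifngr2 stood at 0.02 and −0.01 in microglia-like and at 0.18 and 0.01 in macrophage-like cells. Of the 6 receptor genes 0 passed the size rule in any compared class, and of the 10 signalling genes only Tyk2 did, in endothelial cell-like cells (11.8 and 4.34 CPM, −1.45, from 33 and 17 UMIs). Over all genes of a compared class, 2.64% to 6.55% passed as lower and 0.445% to 3.54% as higher. Counts from such small sets therefore do not set them apart from all genes. Among inhibitors, Socs1, which blocks the receptor's kinases, was lower in cKO in microglia-like (9.93 and 3.36 CPM, −1.56), macrophage-like (17.6 and 5.26 CPM, −1.74) and endothelial cell-like cells (13.3 and 6.39 CPM, −1.06). Another inhibitor, Pias1, was higher in neutrophil-like cells (56.0 and 112 CPM, 1.01, 0.02 to 2.11, from 11 and 41 UMIs). Among 11 sensors Aim2, which assembles an inflammasome on DNA, passed in macrophage-like cells (19.3 and 9.33 CPM, −1.05). It fell just short of 2-fold in microglia-like (44.3 and 22.4 CPM, −0.98) and border-associated macrophage-like cells (25.1 and 12.6 CPM, −0.99). Of 47 other induced genes, 3 were lower in macrophage-like cells, namely Ifi213 (−1.15), Ifi35 (−1.29) and Oas1g (−1.12), a share near the 5.44% of all genes. In microglia-like cells 3 were lower, namely Ifit1bl1 (−1.06), Ifi205 (−1.38) and Ifi35 (−1.05), near the 5.87% of all genes, and in both classes 0 were higher. The chemokine gene Cxcl10 went in opposite directions, at 61.6 and 200.1 CPM in dendritic cell-like cells (1.70, 1.14 to 2.30) and at 158 and 30.7 CPM in endothelial cell-like cells (−2.36, −2.66 to −2.07).

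Of 21 interferon genes in the list, 15 had no UMI in either library. Ifnb1, the beta interferon gene, had 435 UMIs in flox and 398 in cKO. Microglia-like cells held 233 and 264 of these (9.84 and 12.8 CPM, log2 ratio 0.38, 0.12 to 0.64), in 162 and 156 cells. Macrophage-like cells held 133 and 85 (7.06 and 3.76 CPM, −0.91, −1.32 to −0.51), in 80 and 62 cells. Endothelial cell-like cells had 2 UMIs in each library and neutrophil-like cells 0. Ifnb1 RNA was thus found mainly in microglia-like and macrophage-like cells, and its ratio differed in sign between them, while the ISG medians of both were below 0. The difference between the classes was not tested.

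Across cells, members rose and fell together to different degrees. For each member, Pearson's r between its log level and the summed level of the other members was taken over the cells of a class. These points share a library and its depth, so r is a description without a p. In macrophage-like cells the median r was 0.41 in flox and 0.35 in cKO, over 2330 and 2276 cells. The highest in flox were Oasl2 (0.62) and Ifitm3 (0.61), and the lowest was Bst2 (0.13), whose r in cKO was 0.07. In microglia-like cells the medians were 0.34 and 0.30, and Oasl2 was highest in both libraries (0.52 and 0.53). The Schlafen genes Slfn4 and Slfn1 differed by class, with 0.50 and 0.54 in flox macrophage-like and 0.13 and 0.20 in flox microglia-like cells, where their counts were low. Isg15 went from 0.43 in flox to 0.21 in cKO macrophage-like cells and from 0.35 to 0.17 in microglia-like cells, along with its lower level.

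**Figure D5:**
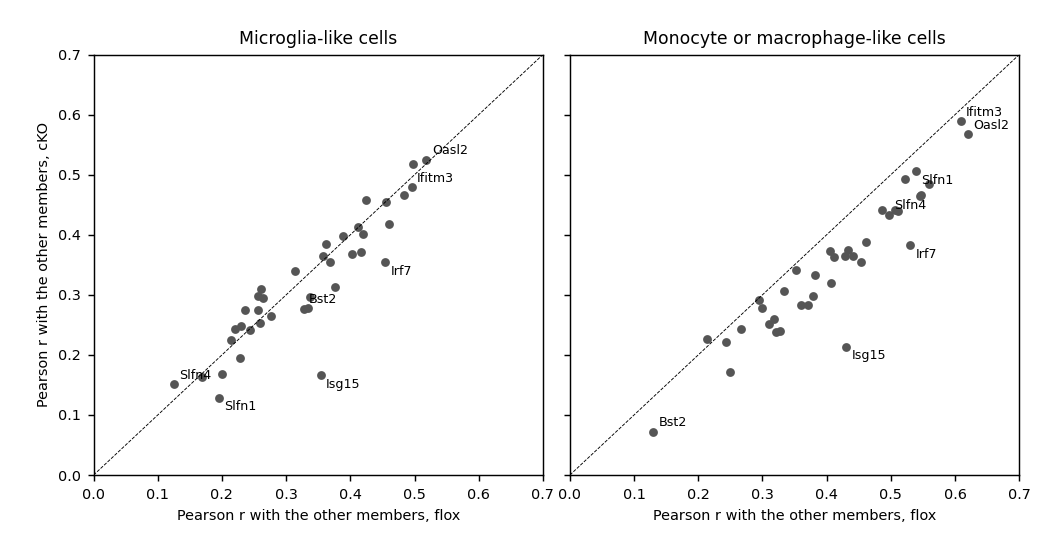
Pearson r of each member with the sum of the other members, in flox (x axis) and cKO (y axis), for microglia-like (left) and macrophage-like cells (right). The dashed line marks equal r; Isg15 lies farthest below it in both panels.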

How the data were processed

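The deposited values are whole-number UMI counts per gene and barcode from BD Rhapsody single-cell RNA-seq, made by the authors without normalization, per the file headers. The submitters' processing notes name CASAVA 1.8, STARsolo, Seurat and mm10. The annotation, the strand setting and how cells were called: not given in the sources used here.

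Cells with 500 UMIs, 200 genes and up to 25% mitochondrial UMIs were kept, which left out 274 flox and 242 cKO barcodes over the mitochondrial limit. Scrublet (scanpy 1.11.5, expected rate 6%) then marked 210 and 142 doublets, which were left out. Markers of 19 classes, each with 5 to 12 genes, were scored per cell. A cell was gated at a scaled score of 0.2, 0.05 above the next class, with 3 markers detected. These thresholds were set after the data were seen. Leiden clusters (resolution 1, 30 components, 20 neighbours) were made without members and pathway genes, and 77.3% to 100% of a compared class lay in clusters of its name.

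Summed counts gave CPM with exact Poisson intervals, ratios with exact conditional intervals and shares with Clopper-Pearson intervals. A gene at 0 was set to a floor of 3 counts for medians. Coordinates and 3′ GC came from GENCODE vM21 (31107 of 31253 identifiers matched), in 10 GC bins. TMM factors came from edgeR 4.0.16. The calculations were tested on simulated counts. Members and lists were chosen with earlier results of these data known. Values were named by a written rule, namely the 10 highest members of flox macrophage-like and microglia-like cells, the extremes past the size rule, leading classes, receptors and pathway genes past the rule in microglia-like or macrophage-like cells. Other members, Ifnb1, Cxcl10, Tyk2, Pias1, Cd274 and the printed promoters were named after their values were seen.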

Additional observations from a re-analysis of the deposited data

Results flagged for a closer look

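The summed members differed in direction between classes. In dendritic cell-like cells the log2 ratio of cKO over flox of the summed UMIs was 0.22 (0.14 to 0.31, from 2082 and 2550 UMIs), while it was −0.34 in microglia-like, −0.45 in macrophage-like, −0.28 in border-associated macrophage-like, −0.49 in neutrophil-like and −0.17 in endothelial cell-like cells, with intervals below 0. Each direction rests on 1 library per group, and the difference between classes was not tested. The dendritic cell-like class held 111 and 105 cells, and the dendritic cluster, with 283 and 254 cells, had a median member ratio of −0.39, so the direction did not hold with clusters in place of the gate.

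Single genes also had an interval above 0 in one class and below 0 in another, and none of these differences between classes was tested. In dendritic cell-like cells this held for Isg20 (2.02), Stat2 (0.83), Bst2 (0.76), Oasl2 (0.58) and Ifitm3 (0.28), each of them below 0 in microglia-like cells. Ifitm3 was also above 0 in endothelial cell-like cells (0.14). Oasl1 was above 0 in border-associated macrophage-like cells (0.71) and below 0 in macrophage-like (−0.29) and endothelial cell-like cells (−1.52). In the endothelial cell-like class 1 flox cell held 30 of the 53 Oasl1 UMIs. Ifnb1 was above 0 in microglia-like cells (0.38) and below 0 in macrophage-like cells (−0.91). Cxcl10 was above 0 in dendritic cell-like (1.70), microglia-like (0.18) and border-associated macrophage-like cells (0.16), and below 0 in macrophage-like (−0.10) and endothelial cell-like cells (−2.36).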

How the results depend on the processing

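With 1 library per group no library could be left out, and no test between groups could be made. No paired analysis was possible because each group has 1 library. Alternatives relative to the other classes, within clusters, with a stricter gate and with GC for counts were chosen after seeing the data. At 1.5-fold, 9 members were lower in cKO microglia-like and 22 in macrophage-like cells, against 10.1% and 9.06% of all genes, and relative to the other classes 0 and 3, against 0.476% and 0.463%. The median of microglia-like cells was −0.16 with equal weight per cell, −0.14 without cells of 3 or more member UMIs among 1000, and 0.044 relative to the other classes. That of macrophage-like cells was −0.22 without such cells and −0.20 relative to the other classes. The relative scale subtracts the other classes' ratios by construction, and on it Isg15 was 0.28 and Irf7 0.55 in microglia-like cells, Irf7 0.36 in macrophage-like cells, and the medians 0.15 in border-associated macrophage-like and 0.19 in oligodendrocyte-like cells. The dendritic cell-like median was −0.39 with clusters, −0.0041 with a gate without Ly6c2, Plac8 and Ifitm6, and −0.25 without cells of 3 member UMIs, where the oligodendrocyte-like median was 0.0026. For other reversals the cause was not tested.

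Summed levels in microglia-like cells, flox then cKO, were 1500.2 and 1152 CPM without Bst2, 1807 and 1561 with equal weight per cell, and 1652 and 1302 with clusters. In macrophage-like cells they were 2404 and 1706 CPM without Ifitm3, 3696 and 2730 with equal weight, and 2566 and 2026 with clusters. Shares of microglia-like cells were 10.3% and 7.76% at 5 UMIs, 44.2% and 40.3% of cells thinned to 2000 UMIs, and 14.3% and 11.9% without Ifitm3, Bst2 and Ifi27l2a. For macrophage-like cells they were 24.9% and 17.9%, 66.5% and 61.8%, and 27.0% and 19.5%. The flox value was higher under each of these alternatives. Of the 17 single-member calls in microglia-like, macrophage-like and endothelial cell-like cells, 10 were lost under some alternative, 4 of them under one other than the relative scale, and 5 other calls were gained. Intervals cover counting error only, and in neutrophil-like, dendritic cell-like and oligodendrocyte-like cells depth left only 8, 17 and 5 members with 30 UMIs.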

Other observations

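Classes with fewer than 100 cells in a library were not compared in the report, and their values are listed here as chosen after they were seen. Shares over all genes were not counted for these classes, so the counts of members below cannot be set against them. Astrocyte-like cells (42 in flox and 83 in cKO) had summed member levels of 1555 and 1541 CPM, and 11 of 24 members with 10 UMIs had a ratio below 0. The interval lay above 0 for 3 members, with 47.3 and 180 CPM of Gbp2 (log2 ratio 1.93, 1.09 to 2.88, from 13 and 102 UMIs), 36.4 and 91.7 CPM of Ifit3 (1.33) and 29.1 and 67.0 CPM of Ifit1 (1.20). It lay below 0 for 2, with 827 and 615 CPM of Ifitm3 (−0.43) and 29.1 and 7.05 CPM of Slfn5 (−2.05, from 8 and 4 UMIs). In choroid plexus epithelial cell-like cells (65 and 145) 5 of 12 members with 10 UMIs were below 0, and the interval lay above 0 for 4, Herc6, Ifih1, Ifitm3 and Ifi27l2a. They had 97.9 and 207 CPM of Ifitm3 (1.08, 0.62 to 1.57) and 8.70 and 54.0 CPM of Ifi27l2a (2.63, from 4 and 66 UMIs). Ependymal cell-like cells, 37 and 30 in number, had summed member levels of 2985 and 2905 CPM, near the flox macrophage-like level. Fibroblast-like cells (27 and 78) had 2104 and 1153 CPM.

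Ifi35, a partner of Nmi that is induced by interferon, was lower in cKO in 5 compared classes, at −1.05 in microglia-like, −1.29 in macrophage-like, −1.04 in border-associated macrophage-like, −1.81 in dendritic cell-like and −1.60 in endothelial cell-like cells. Cd274, which encodes the checkpoint ligand PD-L1 and is induced by interferon gamma, went against the members. It had 48.5 CPM in flox and 66.8 in cKO macrophage-like cells (0.46, 0.34 to 0.58) and 9.88 and 20.4 CPM in border-associated macrophage-like cells (1.05). Past the size rule as lower in a single class were also Ifi207 in endothelial cell-like cells (12.6 and 4.34 CPM, −1.53) and Phf11a in border-associated macrophage-like cells (13.5 and 5.57 CPM, −1.27), both named after their values were seen.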
